A study of Mus musculus with 8 samples.

Results

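The 10 genes described here encode antiviral effectors that cells switch on in response to interferon. They were chosen by name, as the rows of the deposited table whose identifier equals Ifit1, Ifit2, Ifit3, Ifit3b, Rsad2, Cmpk2, Bst2, Xaf1, Rtp4 or Ifi44, and all 10 were found among the table's 18473 genes. RNA was sequenced from 8 mouse libraries, 4 titled EXO and 4 titled LPS. The series concerns exosomes of adipose-derived stem cells given to macrophages, and LPS is the usual short form of lipopolysaccharide, the bacterial endotoxin sensed by TLR4. The labels give every library as the lung epithelial line MLE-12, with no genotype, dose, time or agent, and they do not say whether the EXO cells also received LPS. Untreated cells are not analysed here, so neither group is a resting baseline. Nothing in the labels says that replicates were separate cultures, so p-values measure the spread between these libraries, which may be technical.

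Of the markers analysed, those of macrophages were abundant, and the few of the labelled epithelium were near 0. Among the 16 pan-macrophage genes checked, 15 averaged 1 FPKM or more (fragments scaled to the gene's length and the library's total), and the list summed to 6679 to 8236 FPKM in EXO libraries and 11690.5 to 23645 FPKM in LPS libraries. Of 14 epithelial markers listed, 2 were analysed, Elf3 and Ocln. Together they stayed at or under 0.0133 FPKM in every EXO library and 0.0233 FPKM in every LPS library. The others, Epcam, Cdh1, Krt8 and Krt18 among them, were not analysed, so the reading on epithelium rests on these 2 genes. The analysed endothelial markers summed to at most 0.952 FPKM in EXO and 1.02 FPKM in LPS, and those of fibroblasts to less. The 6 dendritic cell markers summed to 4.07 to 7.63 FPKM in EXO and 5.56 to 8.31 FPKM in LPS, most of it Batf3. Neutrophil markers summed to 4.06 to 7.13 FPKM in EXO and 5.48 to 11.6 FPKM in LPS, mostly Csf3r and S100a8. Lymphocyte markers, mostly Il7r, reached 6.40 FPKM in EXO and 10.1 FPKM in LPS. Alveolar macrophage markers, mostly Fabp4, reached 8.20 FPKM in EXO and 15.3 FPKM in LPS. Siglech, a marker of the plasmacytoid dendritic cells that make much interferon, stood at 0 throughout EXO and averaged 0.0393 ± 0.0279 FPKM in LPS (SD, n = 4). The 8 libraries held 37014760 to 40591444 fragments.

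Interferons bind receptors on the cell surface, and the kinases TYK2 and JAK1 then phosphorylate STAT proteins. STAT2 acts with IRF9 in the complex ISGF3, which binds the interferon-stimulated response element (ISRE) in promoters of such genes. IFIT proteins are built from tetratricopeptide repeats; IFIT1 binds viral RNA whose cap lacks the methyl mark of host mRNA, and the other IFIT proteins restrict translation or act beside it. Viperin, the product of Rsad2, is a radical SAM enzyme that turns CTP into a chain-terminating nucleotide, and Cmpk2 encodes a mitochondrial nucleotide kinase that lies next to Rsad2. Tetherin, the product of Bst2, holds budding virus particles at the cell surface.

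The promoters are shown first, because some of them hold the response element while others do not. It was not itself used to choose the genes, but they were chosen as interferon-induced, the class whose promoters it serves. Its share among them is therefore not an independent finding. RefSeq promoter windows on build GRCm38.p6, from 250 bases before to 50 bases after a start site, were on hand for 9 of the 10 genes. The authors' build was GRCm39, so these coordinates do not apply to their alignment. The core GAAANNGAAA, read on both strands, was present in windows of 5 of those 9 genes. It was present in 3.44% of all 32851 windows, and at 315 of the 7989 tested genes with a window (3.94%). Among other interferon-induced antiviral effectors it was present at 19 of 34 genes. Each stretch below runs 5′ to 3′ on the strand of its gene, from 20 bases before the first match to 20 bases after the last, with the core in capitals.
Ifit1, chr19:34640765-34640833, plus strand: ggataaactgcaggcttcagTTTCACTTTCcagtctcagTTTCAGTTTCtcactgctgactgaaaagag
Ifit3, chr19:34583353-34583436, plus strand: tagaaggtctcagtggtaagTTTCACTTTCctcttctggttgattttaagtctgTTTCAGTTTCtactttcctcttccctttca
Ifit3b, chr19:34607749-34607832, plus strand: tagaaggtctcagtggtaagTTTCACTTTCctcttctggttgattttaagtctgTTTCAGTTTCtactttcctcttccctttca
Rsad2, chr12:26456543-26456592, minus strand: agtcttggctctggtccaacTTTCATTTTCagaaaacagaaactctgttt
Bst2, chr8:71537567-71537622, minus strand: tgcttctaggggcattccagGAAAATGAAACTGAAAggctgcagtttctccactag

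Ifit1, Ifit3 and Ifit3b each held a pair of cores, and the letters of the first and of the second core were the same in all 3 genes. The stretches of Ifit3 and Ifit3b were identical at all 84 bases. In Bst2 a pair of cores overlapped, and in Rsad2 there was 1 core, starting 120 bases before the start site. The windows of Ifit2, Cmpk2, Xaf1 and Ifi44 held no match, which says only that these letters are not in these windows. A STAT site, TTCNNNGAA, was found in Bst2, where it overlapped the first ISRE core, and in Ifit2. An NF-kB site, GGGANNTTCC, was found in Ifit2 alone of the 9, overlapping its STAT site. Those motifs were present in 8.30% and 1.47% of all windows. A match describes the letters and is not evidence that a factor binds.

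**Figure D1:**
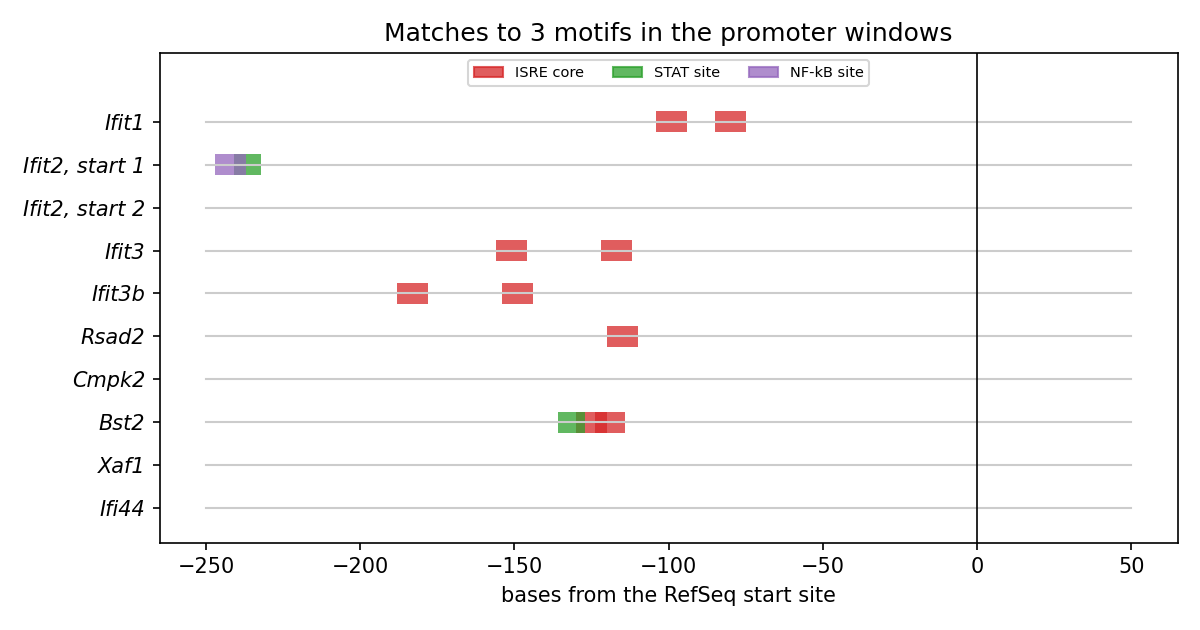
Positions of matches to the ISRE core, the STAT site and the NF-kB site, both strands, in the promoter windows of 9 of the genes; the x axis is the distance in bases from the RefSeq start site (vertical line), and Ifit2 has a row for each of its 2 start sites. The ISRE cores of Ifit1, Ifit3, Ifit3b, Rsad2 and Bst2 start at positions -188 to -85.

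All 10 genes were lower in EXO than in LPS, and in each of them every EXO library lay below every LPS library. Over all 9812 genes tested, 22.1% had every EXO library below every LPS library, 58.4% were called in either direction, 24.7% were called lower in EXO, and 1.28% were called lower with a log2 difference of -2 or beyond. A gene was tested where it reached 1 FPKM in at least 4 libraries, and 8 of the 10 did; Ifit3b and Ifi44 fell short. All 8 were called lower with a difference of -2 or beyond, and 5 of them, Ifit1, Rtp4, Rsad2, Cmpk2 and Ifit3, were among the 50 genes with the lowest differences. Ifit1, Ifit3 and Cmpk2 passed that filter through their LPS libraries alone, so their passing already required a difference, while Ifit2 and Bst2 reached 1 FPKM in all 8 libraries. Every difference is that of EXO less LPS in log2(FPKM + 1), a scale on which low genes appear to change less than they do. In bulk RNA, fewer cells of a type and less RNA per cell cannot be told apart.

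**Figure D2:**
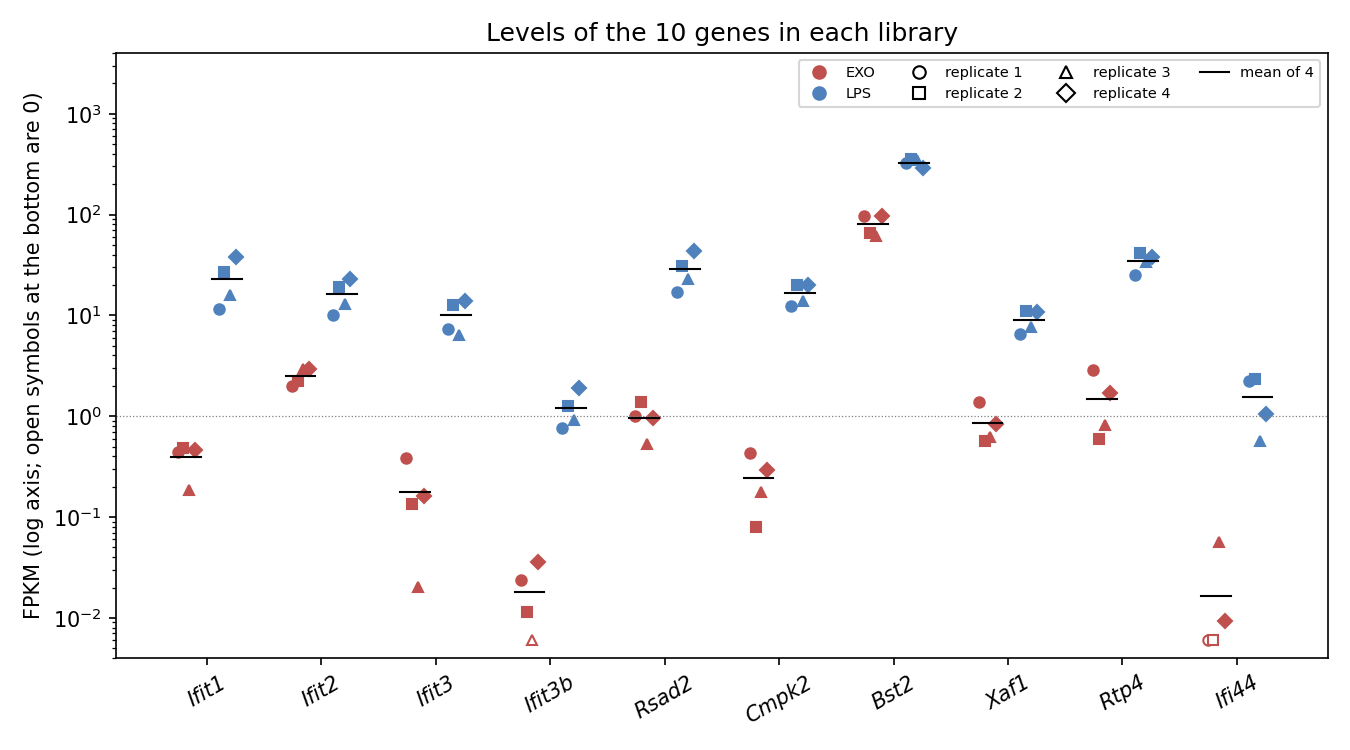
FPKM of each of the 10 genes in each library on a log axis, EXO to the left of LPS, with symbols for the replicate number, a bar at the mean of 4 libraries and open symbols at the bottom for values of 0. For every gene the 4 EXO libraries lie below the 4 LPS libraries; Bst2, at 61.8 to 97.8 FPKM in EXO and 289 to 353 FPKM in LPS, stands above all the others.

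Ifit1 (Entrez gene 15957), the founding member of the family, stood at 0.443, 0.483, 0.184 and 0.460 FPKM in EXO replicates 1 to 4, against 11.7, 27.0, 16.05 and 37.6 FPKM in LPS replicates 1 to 4. The EXO values rested on 18 to 50 fragments and the LPS values on 1253 to 3941. The mean was 0.392 ± 0.140 FPKM in EXO and 23.1 ± 11.6 FPKM in LPS (SD, n = 4 each), 58.8 times higher in LPS. The log2 difference was -3.99 with an SE of 0.31 and a 95% confidence interval of -4.68 to -3.29 (limma adjusted p = 5.89e-06).

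Ifit2 (15958), which also promotes apoptosis, kept the highest level of the family in EXO. It stood at 2.01, 2.22, 2.92 and 2.92 FPKM in EXO libraries, against 10.1, 19.3, 13.1 and 22.9 FPKM in LPS libraries. Its mean was 2.51 ± 0.471 FPKM in EXO and 16.3 ± 5.80 FPKM in LPS, 6.50 times higher in LPS (log2 difference -2.25, SE 0.21, limma adjusted p = 3.50e-06). In LPS libraries the ranges of Ifit1 and Ifit2 overlapped, whereas every EXO library held more Ifit2 than Ifit1 per length.

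Ifit3 (15959), which in human cells stabilises IFIT1 on RNA, fell furthest in EXO replicate 3. It stood at 0.387, 0.133, 0.0201 and 0.161 FPKM in EXO libraries, against 7.33, 12.7, 6.44 and 13.8 FPKM in LPS libraries. The lowest of these, in EXO replicate 3, rested on 2 fragments. The log2 difference was -3.18 (SE 0.21, limma adjusted p = 2.32e-07), and it was -5.30 with a pseudocount of 0.1 and -6.37 by voom on recovered fragments, both more than 1.5 times as large.

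Ifit3b (667370), its near-identical copy, was a small part of the pair. It stood at 0.0238, 0.0114, 0 and 0.0362 FPKM in EXO libraries, against 0.760, 1.27, 0.925 and 1.91 FPKM in LPS libraries. EXO libraries held 6 fragments in all and LPS libraries 432, a rate 68.0 times higher in LPS with an exact 95% interval of 31.0 to 186, which covers counting error only. Without EXO replicate 4, which held 3 of the 6, the rate was 103 times higher in LPS, with an interval of 34.9 to 499.6. Fitted without the filter, where 15.9% of genes were called lower, the log2 difference was -1.10 (SE 0.14, limma adjusted p = 8.20e-04), and it was -5.98 by voom on recovered fragments.

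No source used here says how fragments shared between copies were assigned, so the split between Ifit3 and Ifit3b is uncertain. Of windows of 100 bases along the longest GENCODE M21 coding transcript of Ifit3, 31.7% also occurred in transcripts of Ifit3b, and 27.4% of those of Ifit3b occurred in Ifit3. Ifit1 shared 3.29% of its windows with Ifit1bl2. None of the other pairs among these genes and the IFIT family shared such a window.

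The ratio of Ifit3 to Ifit3b gave no difference that held on every scale. By FPKM it was 16.3, 11.7 and 4.45 in EXO replicates 1, 2 and 4, with no ratio in replicate 3 where Ifit3b was at 0, against 9.64, 9.99, 6.96 and 7.24 in the LPS libraries. On the log2((A + 1)/(B + 1)) scale the difference was -2.08 (two-sided exact permutation p = 0.0286, 0.0429 adjusted over the 3 ratios compared). With recovered fragments plus 0.5, a scale chosen after seeing the data, the difference was -0.36 (exact permutation p = 0.429), with Ifit3b at 0 to 3 fragments in each EXO library.

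Rsad2 (58185), which encodes viperin, stood at 1.004, 1.37, 0.534 and 0.968 FPKM in EXO libraries, against 16.9, 30.7, 23.1 and 43.5 FPKM in LPS libraries. Its mean was 0.968 ± 0.341 FPKM in EXO and 28.6 ± 11.4 FPKM in LPS, 29.5 times higher in LPS. On the log2 scale it differed by -3.84 (SE 0.24, limma adjusted p = 4.53e-07). Libraries of EXO held 75 to 203 of its fragments and LPS libraries 2604 to 6537.

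Cmpk2 (22169), its neighbour on chromosome 12, stood at 0.433, 0.0799, 0.177 and 0.296 FPKM in EXO libraries, against 12.5, 20.2, 14.0 and 19.9 FPKM in LPS libraries. Its mean was 0.247 ± 0.153 FPKM in EXO and 16.7 ± 3.98 FPKM in LPS, 67.5 times higher in LPS. The log2 difference was -3.80 (SE 0.16, limma adjusted p = 1.62e-09), and it was -6.36 by voom on recovered fragments. Each EXO library held 10 to 52 of its fragments.

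The balance between these neighbours depended on the scale. The FPKM ratio of Rsad2 to Cmpk2 was 2.32, 17.1, 3.01 and 3.27 in EXO libraries, against 1.35, 1.52, 1.65 and 2.18 in LPS libraries. Every EXO ratio was above every LPS ratio, and the highest, in EXO replicate 2, rested on 10 Cmpk2 fragments. With a pseudocount of 1 the log2 ratios did not separate the groups (difference -0.04, exact permutation p = 0.8). With recovered fragments plus 0.5 the difference was 1.40, higher in EXO (exact permutation p = 0.0286, the smallest these group sizes allow, 0.0429 adjusted over the 3 ratios).

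Bst2 (69550), which encodes tetherin, had by far the highest level of the 10 and the smallest fold. It stood at 97.8, 65.6, 61.8 and 96.7 FPKM in EXO libraries, against 321, 353, 348 and 289 FPKM in LPS libraries. Its mean was 80.5 ± 19.4 FPKM in EXO and 328 ± 29.5 FPKM in LPS, 4.07 times higher in LPS (log2 difference -2.04, SE 0.15, limma adjusted p = 2.20e-07). It held 1854 to 2975 fragments in each EXO library and 9267 to 11435 in each LPS library.

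The fall of Ifit1 was larger than that of Bst2 within the same libraries. The log2((Ifit1 + 1)/(Bst2 + 1)) value averaged -5.85 ± 0.29 in EXO and -3.90 ± 0.78 in LPS (SD, n = 4 each). The difference of -1.95 had a two-sided exact permutation p of 0.0286, and 0.0429 adjusted over the 3 ratios. With recovered fragments plus 0.5 it was -3.76, with the same p, the smallest these group sizes allow. Among the tested genes described here, Ifit1 had the lowest difference and Bst2 the highest. The pair was chosen with earlier results of these data known, so this p-value is not independent support.

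Rtp4 (67775), a chaperone of G protein-coupled receptors that is also interferon-induced, stood at 2.88, 0.597, 0.814 and 1.68 FPKM in EXO libraries, against 24.9, 41.3, 33.7 and 37.9 FPKM in LPS libraries. It was 23.1 times higher in LPS by mean FPKM (log2 difference -3.90, SE 0.26, limma adjusted p = 1.08e-06). Xaf1 (327959), named as a factor associated with the apoptosis inhibitor XIAP, stood at 1.37, 0.571, 0.622 and 0.846 FPKM in EXO libraries, against 6.46, 10.99, 7.60 and 10.8 FPKM in LPS libraries. It was 10.5 times higher in LPS (log2 difference -2.42, SE 0.17, limma adjusted p = 1.76e-07).

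Ifi44 (99899), a cytoplasmic interferon-induced protein, was nearly silent in EXO. It was listed at 0 in EXO replicates 1 and 2 and stood at 0.0559 and 0.00931 FPKM in EXO replicates 3 and 4, against 2.22, 2.33, 0.569 and 1.05 FPKM in LPS libraries. EXO libraries held 7 fragments in all and LPS libraries 711, a rate 96.0 times higher in LPS with an exact 95% interval of 46.3 to 240 for counting error. EXO replicate 3 held 6 of the 7, and without it the single EXO fragment left a rate 507 times higher in LPS, with an interval of 90.7 to 20045. Fitted without the filter, the log2 difference was -1.25 (SE 0.23, limma adjusted p = 0.00372), and it was -6.90 by voom on recovered fragments.

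**Figure D3:**
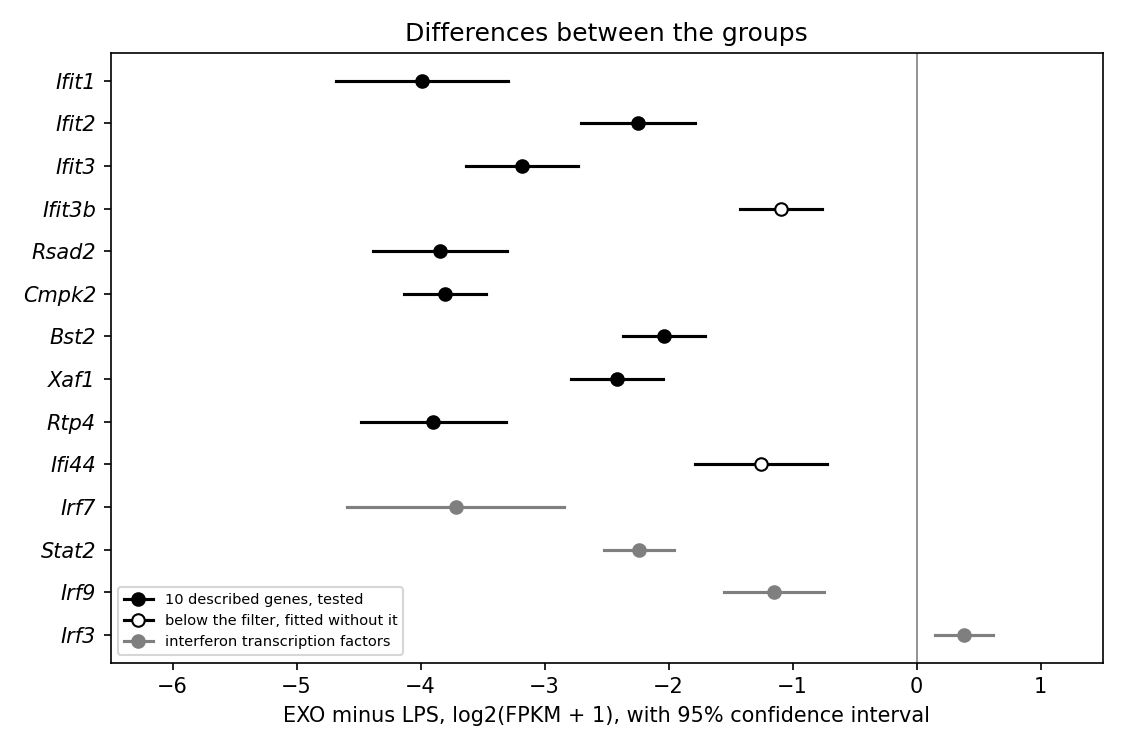
Difference in log2(FPKM + 1), EXO minus LPS, with 95% confidence intervals for the 10 genes and for 4 interferon transcription factors; open symbols are the 2 genes below the filter, fitted without it. The 8 tested genes lie between -3.99 (Ifit1) and -2.04 (Bst2), while Irf3 lies at 0.38, above 0.

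By level per length, the order of the genes differed between the groups. In EXO it ran Bst2, Ifit2, Rtp4, Rsad2, Xaf1, Ifit1, Cmpk2, Ifit3, Ifit3b and Ifi44, with means of 80.5 to 0.0163 FPKM. In LPS it ran Bst2, Rtp4, Rsad2, Ifit1, Cmpk2, Ifit2, Ifit3, Xaf1, Ifi44 and Ifit3b, with means of 328 to 1.22 FPKM. In LPS the ranges of all neighbours in that order overlapped, apart from Bst2 above Rtp4 and Xaf1 above Ifi44. In EXO, Bst2 lay apart from Ifit2 and Xaf1 from Ifit1.

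Libraries of a group did not vary alike across the genes. In LPS, replicates 2 and 4 were the highest pair for 8 of the 10 genes, all but Bst2 and Ifi44, and replicate 1 was the lowest for 7. Ifit1 spanned a factor of 3.22 from LPS replicate 1 to LPS replicate 4, Rsad2 a factor of 2.57 and Bst2 a factor of 1.22. LPS replicate 4, which lay nearest to EXO on the first principal component of all tested genes (-23.9, against -42.8 to -35.4 for the other LPS libraries), held the highest level of all 4 IFIT genes and Rsad2 and the lowest of Bst2.

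In EXO, replicates 1 and 4 were the highest pair for 6 genes, namely Ifit3, Ifit3b, Cmpk2, Bst2, Xaf1 and Rtp4. Irf7, an interferon-induced transcription factor that amplifies interferon responses, had the same pair, at 17.9, 5.81, 5.28 and 16.6 FPKM in EXO libraries, against 123, 159, 139 and 151 FPKM in LPS libraries. Irf9 had that pair as well, whereas Stat2 was highest in EXO replicate 4 and lowest in EXO replicate 1. Among the described genes, Ifit2 went the other way, with its lowest EXO value in replicate 1. Ifit1 and Rsad2 were highest in EXO replicate 2, where Cmpk2 and Rtp4 were lowest. Across EXO libraries the coefficient of variation ran from 18.7% for Ifit2 to 87.6% for Ifit3 among the 8 tested genes, and across LPS libraries from 9.01% for Bst2 to 50.4% for Ifit1.

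**Figure D4:**
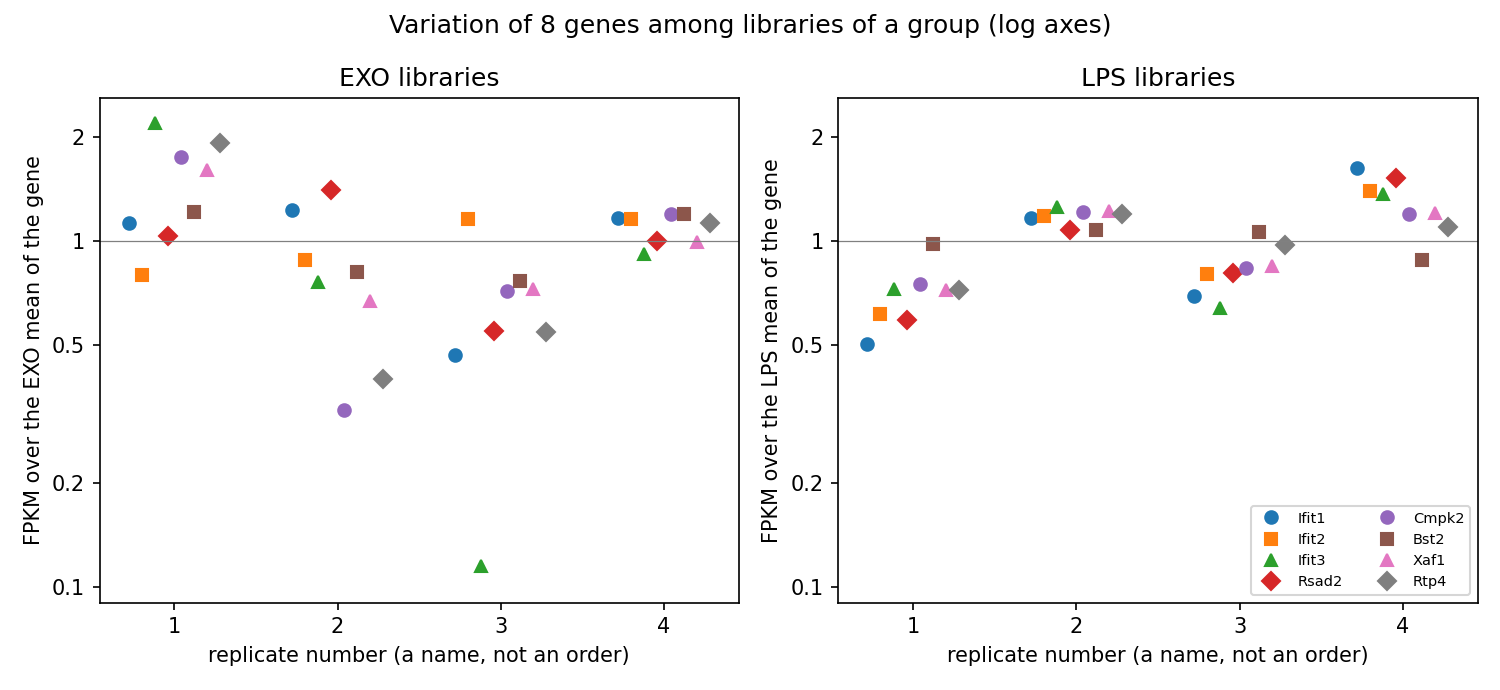
FPKM of the 8 tested genes in each library divided by the gene's mean in its own group, EXO at left and LPS at right, on log axes; the replicate number is a name and implies no order. In LPS the IFIT genes and Rsad2 are highest in replicate 4 and Bst2 is lowest there, and in EXO Cmpk2 and Rtp4 are lowest in replicate 2.

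The genes whose profiles over the 8 libraries lay closest to the mean profile of the 8 tested genes were other interferon-induced genes. Closeness was the root mean square difference of centred log2(FPKM + 1) values. Because it includes the difference between the groups, it picks genes whose difference is of like size. The log2 differences of the 5 closest genes were -3.49 to -3.17, beside a median of -3.49 for the 8 tested genes. It was 0.12 for Gbp3, a guanylate-binding protein, 0.19 for Trim30a, a TRIM protein, and 0.22, 0.23 and 0.23 for Ifi204, Ifi203 and Ifi209 of the p200 family. Among the genes themselves it ran from 0.13 for Ifit3 to 0.64 for Bst2. Gbp3 stood at 0.695, 0.602, 0.357 and 0.738 FPKM in EXO libraries, against 9.26, 19.6, 11.4 and 15.9 FPKM in LPS libraries. Gbp3 and Ifi209 passed the filter through their LPS libraries alone, so their passing already required a difference. Genes of the guanylate-binding and p200 families have similar copies, so their individual levels are uncertain.

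The factors that drive such genes were mostly lower too. Of 9 interferon transcription factors tested, EXO was called lower for 6 and higher for 1, with 2 not called. Over all genes tested 24.7% were called lower and 33.7% higher. The median log2 difference was -1.15 for the factors, beside 0.085 for all genes tested. Stat2 averaged 1.86 ± 0.340 FPKM in EXO and 12.5 ± 1.96 FPKM in LPS (log2 difference -2.24, limma adjusted p = 2.57e-08). Irf9, its partner in ISGF3, averaged 5.43 ± 1.43 FPKM in EXO and 13.3 ± 3.31 FPKM in LPS. Irf3, which is present before stimulation and starts interferon transcription, was the member called higher, at 9.53 ± 0.749 FPKM in EXO and 7.09 ± 0.649 FPKM in LPS (log2 difference 0.38, limma adjusted p = 0.00846). Irf1 averaged 3.34 ± 1.13 FPKM in EXO and 12.97 ± 1.38 FPKM in LPS.

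The type I interferon transcripts analysed, Ifnb1 and Ifnk, were at the floor in both groups. Of the 8 listed, these 2 were analysed. Ifna1, Ifna2, Ifna4, Ifna5, Ifna6 and Ifne were not, so nothing is said of their levels. Neither Ifnb1 nor Ifnk had a fragment in any EXO library, and in LPS each had 1 fragment, Ifnb1 in replicate 4 and Ifnk in replicate 2. Of 6 receptor and kinase genes 4 were called lower and none higher, beside 24.7% called lower over all genes tested. Tyk2 averaged 4.198 ± 0.547 FPKM in EXO and 10.4 ± 0.563 FPKM in LPS, and the receptor chain Ifnar1 14.5 ± 2.37 FPKM in EXO and 22.3 ± 0.767 FPKM in LPS. Its partner Ifnar2 was not called, at 13.3 ± 1.84 FPKM in EXO and 16.1 ± 0.736 FPKM in LPS (limma adjusted p = 0.0648). Some alternatives did call Ifnar2 lower, namely median-of-ratios rescaling, voom, and the fit without EXO replicate 2 (limma adjusted p = 0.0240, 0.0174 and 0.0226). Ifngr1 and Ifngr2 of the interferon gamma receptor were also called lower.

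Upstream of interferon, 7 of 10 genes of nucleic acid sensing and of the TRIF arm of Toll-like receptor signalling were called lower, none higher. The share called lower over all genes tested was 24.7%. The median log2 difference of the 10 genes was -0.61. Ticam2, the adaptor that links TLR4 to TRIF, averaged 8.01 ± 3.78 FPKM in EXO and 21.1 ± 1.07 FPKM in LPS, and Ticam1, which encodes TRIF, 6.06 ± 0.457 FPKM in EXO and 10.2 ± 0.739 FPKM in LPS. Tlr3 averaged 1.29 ± 0.149 FPKM in EXO and 4.18 ± 1.20 FPKM in LPS, and Sting1 18.7 ± 1.24 FPKM in EXO and 34.3 ± 0.847 FPKM in LPS.

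Other interferon-induced antiviral effectors were lower as well, with exceptions. Of 40 tested, 36 were called lower and 2 higher, leaving 2 not called, where 24.7% of all genes tested were called lower. The median log2 difference was -1.86, beside a median of -3.49 for the 8 tested genes described above. Rigi, the RNA sensor, averaged 2.24 ± 0.340 FPKM in EXO and 16.5 ± 2.64 FPKM in LPS, and Zbp1, which detects left-handed nucleic acids, 0.105 ± 0.0846 FPKM in EXO and 11.1 ± 3.29 FPKM in LPS. Gbp2 and Trim30a, with log2 differences of -4.85 and -3.41, completed the 4 with the smallest p. Of the 40, 7 genes (Gbp2, Gbp3, Gbp7, Zbp1, Slfn8, Isg20 and Oas2) passed the filter through their LPS libraries alone, so their passing already required a difference. Among the other 33, 29 were called lower and the median was -1.60. The median of -3.49 likewise includes Ifit1, Ifit3 and Cmpk2, which passed in that way too. The rest of the tested genes described above, Rtp4, Rsad2, Xaf1, Ifit2 and Bst2, lay at -3.90, -3.84, -2.42, -2.25 and -2.04. The exceptions were picked out after their values were seen. Ifi27 averaged 63.6 ± 17.8 FPKM in EXO and 38.2 ± 15.0 FPKM in LPS, with overlapping groups, and Nt5c3 29.1 ± 2.58 FPKM in EXO and 21.5 ± 2.57 FPKM in LPS, both called higher. The call of Ifi27 was lost without the filter and in 5 of the 8 fits that left out 1 library, those without EXO replicate 1 or 4 or LPS replicate 1, 2 or 3 (limma adjusted p = 0.0607 to 0.0876 over these 6 fits). Ifitm2, at 262 ± 36.5 FPKM in EXO and 296 ± 59.5 FPKM in LPS, and Apobec3, at 8.39 ± 1.57 FPKM in EXO and 10.003 ± 1.60 FPKM in LPS, were not called. Without LPS replicate 4, Ifitm2 was called lower (limma adjusted p = 0.0420).

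**Figure D5:**
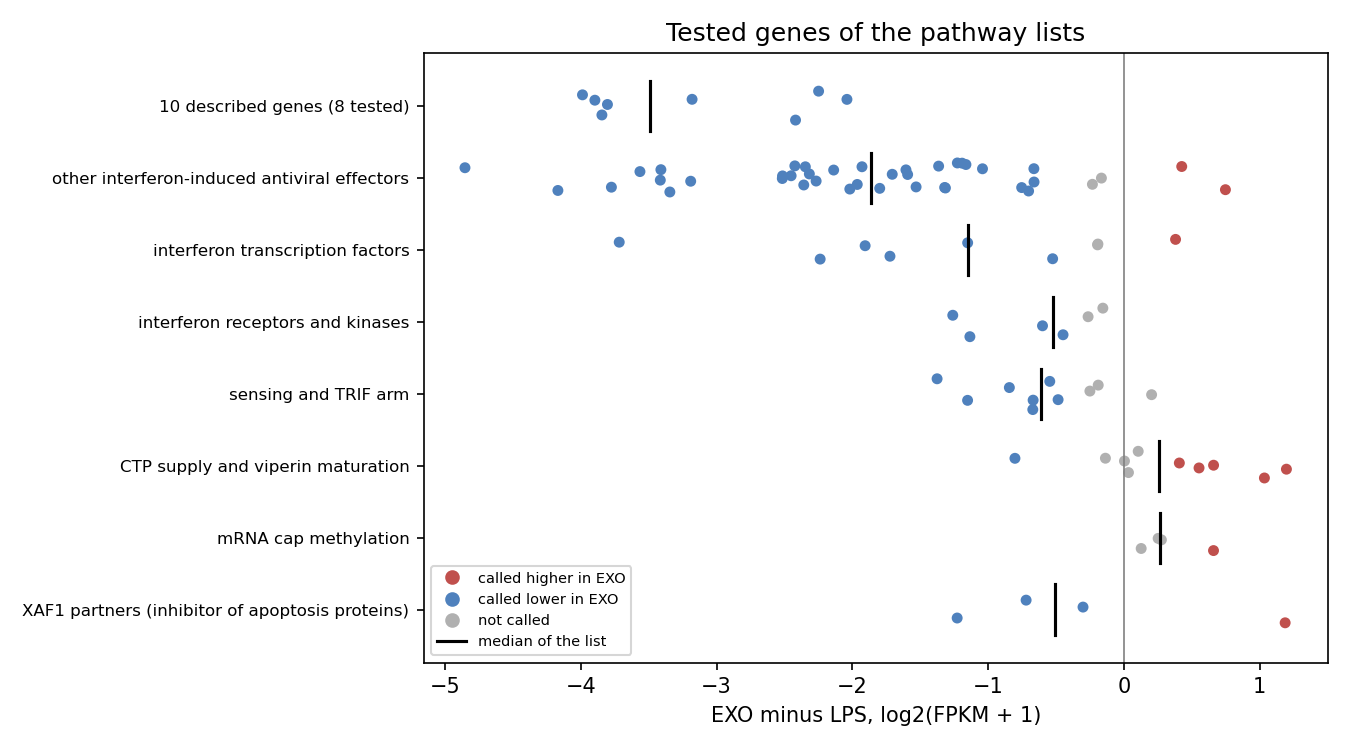
Difference in log2(FPKM + 1), EXO minus LPS, for each tested gene of the pathway lists, coloured by call (limma adjusted p under 0.05), with a bar at each list's median; vertical scatter within a row has no meaning. The medians are -3.49 for the described genes, -1.86 for the other effectors, -1.15 for the transcription factors, and 0.26 for both CTP supply with viperin maturation and mRNA cap methylation. Those of the described genes and the other effectors include genes that passed the filter through their LPS libraries alone.

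Genes that supply or mature viperin went both ways. Viperin uses CTP and needs an iron-sulphur cluster, which in human cells is delivered by the cytosolic assembly proteins CIAO1 and CIAO2B. Of 10 tested genes of CTP supply and viperin maturation, 5 were called higher in EXO, 1 lower and 4 were not called. Over all genes tested 33.7% were called higher. Uck2, a uridine-cytidine kinase, averaged 85.8 ± 12.3 FPKM in EXO and 41.6 ± 8.54 FPKM in LPS, and Nme1, a nucleoside diphosphate kinase, 174 ± 34.2 FPKM in EXO and 76.8 ± 24.1 FPKM in LPS. Ctps2, a CTP synthase, was the gene called lower, at 4.59 ± 0.182 FPKM in EXO and 8.74 ± 0.289 FPKM in LPS, and Uck1 was called higher, at 10.5 ± 1.51 FPKM in EXO and 6.26 ± 0.957 FPKM in LPS. The other CTP synthase listed, Ctps1, was not analysed. Of the assembly genes, picked out after their values were seen, Ciao2b was called higher, at 89.2 ± 11.5 FPKM in EXO and 60.6 ± 9.31 FPKM in LPS (log2 difference 0.55, limma adjusted p = 0.00250). Ciao1 averaged 18.01 ± 1.03 FPKM in EXO and 16.7 ± 1.002 FPKM in LPS and was not called.

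The methyl marks of mRNA caps are written by a small set of enzymes, listed here without regard to which mark IFIT1 reads. Of 4 tested, Pcif1, at 10.8 ± 1.55 FPKM in EXO and 6.55 ± 1.49 FPKM in LPS, was called higher, and Rnmt, Ramac and Cmtr2 were not called. That is near the share called higher over all genes tested, 33.7%. Rnmt, the cap guanine methyltransferase, averaged 22.3 ± 2.31 FPKM in EXO and 20.4 ± 2.21 FPKM in LPS. Cmtr1, listed but below the filter, averaged 0.928 ± 0.0766 FPKM in EXO and 0.927 ± 0.182 FPKM in LPS. Fitted without the filter, Cmtr1 was not called. Among the inhibitor of apoptosis genes linked to XAF1, Xiap averaged 2.50 ± 0.396 FPKM in EXO and 3.29 ± 0.270 FPKM in LPS (log2 difference -0.30, limma adjusted p = 0.0350). That call was lost without EXO replicate 1 or 4 or LPS replicate 1 or 2, with limma adjusted p of 0.0697 to 0.104. Birc2 and Birc3 were called lower, and Birc5, which is made in dividing cells, was called higher, at 43.2 ± 3.40 FPKM in EXO and 18.5 ± 2.73 FPKM in LPS.

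Among family relatives outside the 10, Cmpk1 was abundant and not called, and the IFIT relatives were rare. Cmpk1, the cytosolic counterpart of Cmpk2, averaged 131 ± 8.69 FPKM in EXO and 140 ± 16.1 FPKM in LPS (log2 difference -0.09, 95% confidence interval -0.33 to 0.16, limma adjusted p = 0.536). Ifit1bl1 and Ifit1bl2, IFIT genes of the same cluster, averaged 0.00208 and 0.00196 FPKM in EXO, 1 fragment each, and 0.420 and 0.211 FPKM in LPS, all EXO libraries lying below all LPS libraries. Ifi44l, Rtp1, Rtp2 and Rtp3 are not analysed here.

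Most genes beside the described ones on the chromosome were too low to test. The 2 nearest coding genes on either side of each, in the order of RefSeq GRCm38.p6, came to 26, of which 16 were in the table and 4 were tested. Of the 4 tested, 2 were called lower, 1 higher and 1 was not called, where 58.4% of all genes tested were called. Lipa, lysosomal acid lipase, beside the IFIT cluster on chromosome 19, was lower in EXO, at 38.1 ± 7.31 FPKM against 118 ± 9.32 FPKM in LPS (log2 difference -1.63, limma adjusted p = 3.48e-07). Id2, an inhibitor of transcription factors beyond the Rsad2 and Cmpk2 pair, was higher, at 28.6 ± 2.50 FPKM in EXO and 15.7 ± 3.06 FPKM in LPS (log2 difference 0.84, limma adjusted p = 1.14e-04). Mvb12a, next to Bst2, averaged 60.5 ± 9.23 FPKM in EXO and 54.1 ± 2.59 FPKM in LPS and was not called (limma adjusted p = 0.322). Adgrl2, the last of the 4, was called lower, with a log2 difference of -0.48, a call lost without the filter and without EXO replicate 1 (limma adjusted p = 0.0506 and 0.0540). Fitted without the filter, Ifit1bl1, Ifit1bl2, Pank1, Ccdc194, Tmem221 and Masp1, all below 1 FPKM on average in both groups, were called lower as well. In that fit 15.9% of all genes were called lower. Ch25h, itself interferon-induced, was rare, averaging 0.00986 FPKM in EXO and listed at 0 in all LPS libraries.

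The general macrophage markers moved in the same direction as these effectors. Of 15 tested, 14 were called lower in EXO and none higher, beside 24.7% called lower over all genes tested. The markers had a median log2 difference of -0.95 and a range from -1.85 to -0.13, against -3.99 to -2.04 for the 8 tested genes described here. Their part in the result was not tested.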

How the data were processed

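The authors deposited 1 table of FPKM values, that is fragments per gene which the authors divided by gene length and library total before deposit. The header names no unit, and this reading rests on the values: low genes take whole-number steps whose size varies with gene and library. Whole fragments were recovered from those steps for all 17645 genes above 0 in at least 1 library (largest distance from a whole number 0.000588, tolerance 0.01), taking the smallest whole numbers possible. HISAT2 and build GRCm39 are named per the submitters' processing notes; the gene counter, its strand setting and the annotation are not stated in those notes or the labels.

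FPKM values were transformed to log2(FPKM + 1), and genes with at least 1 FPKM in at least 4 libraries were fitted with limma 3.58.1 (R 4.3.3), its variance prior following intensity and made robust. P-values were two-sided, Benjamini-Hochberg adjusted over all 9812 genes and a threshold of 0.05. Ratios between members were compared by exact permutation over 70 labelled assignments of the 8 libraries (scipy 1.17.1). The fit was also run on simulated data in which few genes changed and variation was fixed. In these data 58.4% of genes were called and variation differed between genes, so that run does not vouch for the calls here.

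The genes, lists and tests were chosen with earlier results of these data known. The text names the 10 genes, up to 4 genes of each list with the smallest p, the main interferon factors, family relatives, 5 genes of similar profile and genome neighbours; 1 gene that this rule names is not reported here. No library looked duplicated (chi-square between libraries of a group, per degree of freedom, 37.8 or more). Sequences are from RefSeq GRCm38.p6 and GENCODE M21.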

Additional observations from a re-analysis of the deposited data

Results flagged for a closer look

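Of 20 groups of 4 libraries examined, 1 for each of the 10 genes in each group, 2 held a library apart from the other 3, where chance gives about 1 in 20. For Ifit1, EXO replicate 3 was far below the others, at 0.184 FPKM on 18 fragments. For Ifi44, EXO replicate 3 was far above the others, at 0.0559 FPKM on 6 fragments.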

How the results depend on the processing

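The call of each of the 8 tested genes and its direction stayed under every alternative that kept the gene, with limma adjusted p up to 3.43e-04; for Ifit3b and Ifi44, fitted without the filter, the highest was 0.0187. The count of described genes called lower was 8 in every setting except 10 without a filter and 7 at a mean FPKM of at least 5, where Xaf1 is not tested. Genes called lower over the table ranged from 1685 (6668 genes tested, mean FPKM at least 5) to 2876 (voom), against 2422, and genes called higher from 2485 to 3724, against 3310.

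Some small counts moved. Other effectors called higher fell to 1 without a filter and ranged from 1 to 2 as libraries were left out, Ifi27 being the call lost. Sensing genes called higher ranged from 0 to 1 as libraries were left out, and were 1 without EXO replicate 2 and LPS replicate 4. Cap methylation genes called higher ranged from 1 to 2, and were 3 without that pair of libraries. Without a filter 2 family relatives were called lower. Receptor and kinase genes called lower ranged from 4 to 5, Ifnar2 being the call gained. Other effectors called lower rose to 37 without LPS replicate 4, Ifitm2 being the call gained.

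The Ifit3 to Ifit3b ratio was -2.05 without EXO replicate 2 and LPS replicate 4 (adjusted exact permutation p = 0.150) and -0.36 with recovered fragments plus 0.5, and from -2.20 to -1.98 as libraries were left out. The Ifit1 to Bst2 ratio was -1.74 without that pair of libraries, and from -2.20 to -1.62. Without that pair both ratios had an unadjusted exact permutation p of 0.1. This is the smallest that so few libraries allow, so these p-values do not show a weaker difference. The Rsad2 to Cmpk2 ratio turned to 0.96 with a pseudocount of 0.1 and to 1.40 with recovered fragments plus 0.5, a scale added after seeing the data, and ranged from -0.20 to 0.091 as libraries were left out, turning to 0.015 without EXO replicate 1, 0.049 without EXO replicate 3 and 0.091 without LPS replicate 4.

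No pairing of samples by the replicate number was seen, though 4 libraries per group cannot exclude it. Deviations of same-numbered libraries correlated at 0.045, 0.17, -0.29 and -0.11 across genes, and those of other-numbered libraries at -0.16 to 0.35. With the replicate number as a block 2339 genes were called lower and 3253 higher. The ratios, by a sign-flip test over 4 differences that cannot go below p = 0.125, were -2.08 and -1.95 with an adjusted exact p of 0.188. No call of a described gene changed, and among the list genes and neighbours called in the report Xiap alone lost its call (limma adjusted p = 0.0599).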
